A study of Mus musculus with 4 samples.

Results

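The 9 mature miRNAs described here come from 6 miRNA names with a known part in the choice of mesenchymal progenitors between fat, bone and cartilage. They are mmu-miR-204-5p, mmu-miR-204-3p, mmu-miR-211-5p, mmu-miR-335-5p, mmu-miR-335-3p, mmu-miR-140-5p, mmu-miR-140-3p, mmu-miR-31-5p and mmu-miR-138-5p, written without the mouse prefix from here on except where their values are first given. Their probes were picked out by these exact names from the 1247 mouse miRNAs on the array. The profiles came from 4 one-colour Agilent arrays of the stromal-vascular fraction (SVF) of visceral white adipose tissue (visWAT), the pellet of preadipocytes, vascular cells and blood cells that is left after adipocytes have been floated off. Female C57/BL6 mice aged 8 weeks received, over 3 days, CL-316243 (CL) at 1 mg/kg, an agonist of the β3-adrenergic receptor that induces browning, or with PBS as vehicle, and each group had 2 arrays. Per the study each array held RNA pooled from 5 mice. The strain entry of the labels counts upward from C57/BL6 over the samples, while the growth protocol names C57/BL6 for all. The labels give the injections as subcutaneous and the methods as intraperitoneal. Nothing says that the pools were prepared independently beyond their numbering, so that p-values measure the spread between these arrays. The comparison asked which commitment miRNAs of the SVF differed during early browning.

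A miRNA guides a silencing complex to mRNAs that pair with its seed, bases 2 to 8 from its 5′ end. In mesenchymal progenitors the transcription factor Runx2 drives the osteoblast fate and holds back the adipocyte fate. miR-204 and miR-211 are known to repress Runx2 and so to favour fat over bone. miR-335 is made from an intron of Mest, an imprinted gene linked to fat expansion, and miR-140, best known from cartilage, has been described as favouring adipogenesis. miR-31 and miR-138 have been described as restraining adipogenic differentiation.

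The mature sequences below, from RefSeq (build GRCm38.p6), belong to the miRNAs on which the results turn, with the seed in capitals. Of the 9 members, 8 were matched by name.
miR-204-5p: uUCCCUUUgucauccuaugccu
miR-211-5p: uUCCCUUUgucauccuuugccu
miR-335-5p: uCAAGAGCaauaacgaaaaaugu
miR-140-3p: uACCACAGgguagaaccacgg
miR-204-5p and miR-211-5p shared the seed UCCCUUU and 21 of 22 bases, and the single difference was A17U, read from miR-204-5p to miR-211-5p and counted from the 5′ end. Mir204 lies at chr19:22750605-22750672 on the plus strand inside the span of Trpm3, and Mir211 at chr7:64205806-64205911 on the plus strand inside the span of the related channel gene Trpm1. Mir335 lies at chr6:30741299-30741396 on the plus strand inside Mest, and Mir140 at chr8:107551244-107551313 on the plus strand inside Wwp2. Each of these host genes runs on the same strand as its miRNA. Mir31 lies at chr4:88910557-88910662 on the minus strand, and miR-138-5p has 2 genes, Mir138-1 at chr9:122682876-122682974 and Mir138-2 at chr8:94324311-94324381, both on the plus strand. Outside the pair of miR-204-5p and miR-211-5p, the members with a sequence had seeds of their own. The only further miRNAs with one of these seeds among 1679 mature names of the RefSeq table were miR-7670-3p, miR-7684-5p and miR-497b, and none of these was on the array.

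The scanner software detected 4 of the 9 members, miR-204-5p, miR-335-5p, miR-140-5p and miR-140-3p, on every array, and the other 5 on no array. Among all 1247 miRNAs on the array, 362 were detected on all 4 arrays and 793 on none. In all, 386 to 431 miRNAs were detected per array and no spot was saturated. A miRNA was tested where each array of one group or the other had it detected, which kept 425 miRNAs and the 4 detected members. Background-corrected spot signals were brought to one distribution over the arrays by quantile normalization. Median polish of the log2 values then gave 1 value per array from the 40 spots of a miRNA, and limma's moderated test was fitted over all 425. On the slide the vehicle arrays shared row 1 and the CL arrays row 2, so that row and treatment cannot be told apart. A vehicle and a CL array stood in each column. The 2 arrays per group limit the precision of every value.

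**Figure D1:**
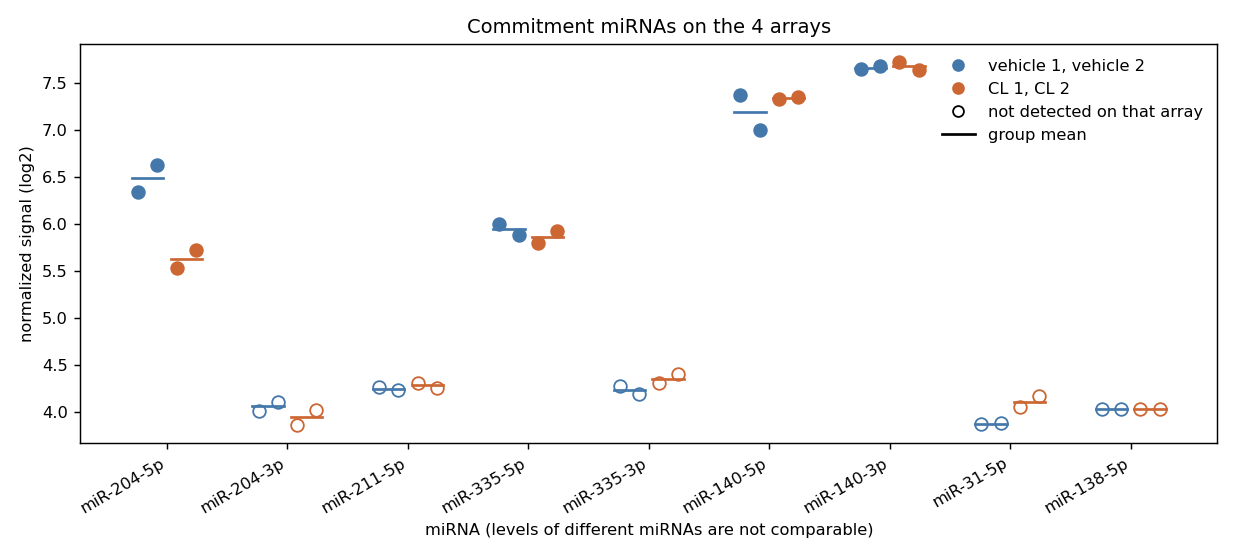
Normalized log2 signal (y axis) of the 9 miRNAs (x axis) on the 4 arrays, with vehicle arrays in blue, CL arrays in orange, bars at the group means, and open circles where the miRNA was not detected. For miR-204-5p both CL arrays, at 5.53 and 5.72, lay below both vehicle arrays, at 6.35 and 6.63, and the 5 miRNAs with open circles all lay at or below 4.40.

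mmu-miR-204-5p, the Runx2 repressor, was lower in CL-treated SVFs before adjustment for multiple tests. Its log2 signal was 6.35 (vehicle 1) and 6.63 (vehicle 2) without treatment, and 5.53 (CL 1) and 5.72 (CL 2) with it, so that the groups did not overlap. The means were 6.49 ± 0.20 (SD, n = 2 arrays) and 5.62 ± 0.14 (SD, n = 2), a log2 difference of −0.87 (standard error 0.16, 95% interval −1.30 to −0.44), or 1.83-fold lower after CL. limma gave an unadjusted p of 0.00432 and an adjusted p of 0.0917 with Benjamini-Hochberg adjustment over the 425 miRNAs, so that miR-204-5p passed a threshold of 0.05 before adjustment but not after it. Within the columns of the slide the log2 difference was −0.82 in the first pair of arrays and −0.92 in the second. With the column as a block limma's adjusted p was 0.0250. The block did not make the standard error smaller, at 0.168 with it and 0.162 without it. An exact permutation test of 2 arrays against 2 cannot give a two-sided p below 0.333.

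These values are read against the whole array. At the unadjusted threshold limma called 35.1% of the 425 miRNAs, 149 in all, with 80 higher (18.8%) and 69 lower (16.2%) after CL, and at the adjusted threshold it called 0 (0%). With the column as a block 20.2% passed the adjusted threshold, 9.41% lower and 10.8% higher after CL. Without adjustment SAM, the test of the study, called 60 miRNAs and the methods' t-test 52, and with adjustment each called 0. The split of higher and lower calls moved with the scaling, and in both directions. It was 44 and 89 when each array was scaled by its 75th percentile over detected probes. It was 46 and 88 without normalization between arrays, 40 and 51 with median centring, and 46 and 62 on the deposited table. Higher calls led with the 75th percentile over all probes (76 and 51) and on the scanner software's totals per miRNA (69 and 51). The groups did not overlap in 72.9% of tested miRNAs, with CL the lower group in 34.8% and the higher in 38.1%. Of the 4 tested members, 1 was called at the unadjusted threshold and 0 at the adjusted one, which is no larger a share than among all tested miRNAs. The difference of miR-204-5p was exceeded in absolute size by 52 of the 425, or 12.2%, and 24 miRNAs had a more negative one.

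**Figure D2:**
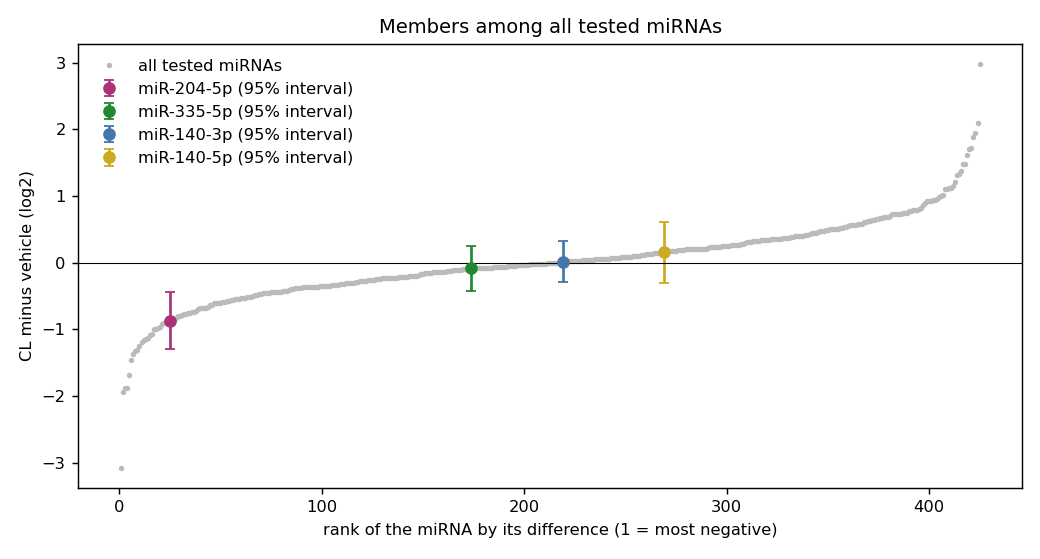
Difference between CL and vehicle (log2, y axis) of the 425 tested miRNAs against their rank (x axis), with the 4 detected members in colour and bars for limma's 95% interval. The interval of miR-204-5p, from −1.30 to −0.44, lay below 0, and those of the other 3 members spanned 0.

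The lower signal of miR-204-5p was seen on both of its probes. The array measures it with probes of 20 and 19 nucleotides, printed in 20 spots each. They are shown here beside the 2 probes of the same lengths for miR-211-5p, with the base that faces position 17 of the miRNA in capitals.
miR-204-5p, 20 nucleotides: aggcaTaggatgacaaaggg
miR-204-5p, 19 nucleotides: aggcaTaggatgacaaagg
miR-211-5p, 20 nucleotides: aggcaAaggatgacaaaggg
miR-211-5p, 19 nucleotides: aggcaAaggatgacaaagg
The longer miR-204-5p probe pairs with bases 3 to 22 of the miRNA and the shorter one with bases 4 to 22. On the longer probe the median spot signal, in scanner units before any correction, was 169 (vehicle 1), 188 (vehicle 2), 82.7 (CL 1) and 97.2 (CL 2). All 20 of its spots were well above background on every array. The shorter probe read 69.9 and 70.6 for vehicle against 49.2 and 50.1 for CL. Negative control spots averaged 31.7 to 38.6 over the arrays. The shorter probe was well above background in all 20 spots on both vehicle arrays, but in 0 spots on CL 1 and 14 on CL 2. After normalization the log2 difference was −1.05 on the longer and −0.69 on the shorter probe. Of the 27 spots free of outlier flags on all arrays, 27 had a lower signal on both CL arrays than on both vehicle arrays before normalization and 26 after it. Spots and probes of 1 miRNA are not replicates of the treatment, and these counts describe the arrays alone.

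mmu-miR-211-5p, the seed partner of miR-204-5p, was not detected. It has 4 probes of 19 to 22 nucleotides with 10 spots each, and 0 of its 160 spots over the 4 arrays were well above background. Its median spot signal was 40.4, 33.5, 41.3 and 34.4 on vehicle 1, vehicle 2, CL 1 and CL 2, which is 1.07 to 1.09 times the median of the negative controls of the same array. Each probe for miR-211-5p has 1 mismatch to miR-204-5p, and each probe for miR-204-5p has 1 mismatch to miR-211-5p. The opposite arm miR-211-3p was detected on all 4 arrays on probes of 12 and 13 nucleotides, at log2 signals of 8.75, 9.06, 8.57 and 8.70, with a log2 difference of −0.27 (95% interval −0.69 to 0.16, adjusted p = 0.275 from limma). That sign turned, to 0.15, when a trend on the sequence and length of the probes was removed. The difference was −0.42 without vehicle 1 and −0.11 without vehicle 2. Of the arms of Mir211 the one with the shared seed was the undetected one. Whether the signal on the 12- and 13-nucleotide probes of miR-211-3p came from Mir211 alone was not tested.

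**Figure D3:**
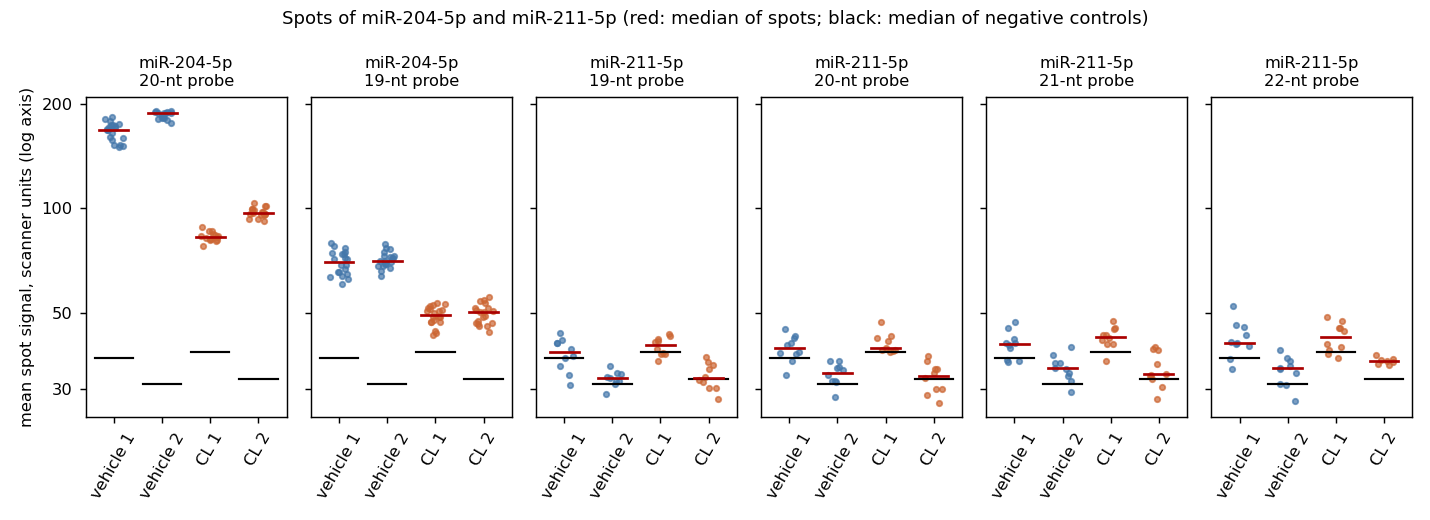
Mean spot signal in scanner units on a log axis (y axis) by array (x axis) for the 2 probes of miR-204-5p and the 4 probes of miR-211-5p, with a dot per spot free of outlier flags, a red bar for their median and a black bar for the median of the negative controls. On both probes the plotted miR-204-5p spots of CL 1 and CL 2 lie below those of both vehicle arrays, while the miR-211-5p spots lie around the negative controls on every array.

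mmu-miR-204-3p, the other arm of Mir204, had 1 of 160 spots well above background. Its median spot signal was 37.2, 32.0, 36.2 and 31.4 on vehicle 1, vehicle 2, CL 1 and CL 2, or 0.943 to 1.03 times the negative controls. No difference between groups could therefore be measured for this arm.

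mmu-miR-335-5p, the Mest-intron miRNA, did not differ beyond the spread of the arrays. Its log2 signal was 6.00 and 5.89 in vehicle against 5.80 and 5.92 in CL, so that the groups overlapped. The means were 5.94 ± 0.080 (SD, n = 2 arrays) and 5.86 ± 0.091 (SD, n = 2), with a log2 difference of −0.084 (95% interval −0.42 to 0.25, adjusted p = 0.672 from limma). Its sign differed between the columns, at −0.20 in the first and 0.037 in the second. On the 19-nucleotide probe all 20 spots were well above background on each array, with median signals of 162, 133, 123 and 140. On the 18-nucleotide probe 13 of 20 spots were well above background on vehicle 1 and 1 on each of the other arrays. The difference was negative under 19 of 20 alternatives and positive under 1, the scanner software's total per miRNA. In that total CL 1 stood at 88.6, where its own probe totals sum to 36.3. The log2 difference of 0.47 was computed from the totals per miRNA, the 88.6 included, and not from the probe totals. Its opposite arm mmu-miR-335-3p was detected on no array, with 2 of 160 spots well above background and median signals 1.07 to 1.12 times the negative controls.

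The arms of miR-140 were both detected and neither was called. mmu-miR-140-3p was at 7.65 and 7.68 in vehicle and at 7.73 and 7.64 in CL, with vehicle inside the range of CL. This is a log2 difference of 0.016 (95% interval −0.30 to 0.33, adjusted p = 0.919 from limma), with means of 7.67 ± 0.024 (SD, n = 2 arrays) and 7.68 ± 0.063 (SD, n = 2). That interval holds no log2 change beyond 0.33 in either direction. Its probes of 14 and 15 nucleotides gave differences of 0.029 and 0.00041, and its sign turned to −0.12 without normalization between arrays, −0.090 with median centring and −0.010 on the scanner totals.

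mmu-miR-140-5p was at 7.38 and 7.003 in vehicle 1 and 2 and at 7.34 and 7.36 in CL, so that vehicle 1 lay with the CL arrays and vehicle 2 below them. The log2 difference was 0.16 (standard error 0.17, 95% interval −0.30 to 0.61, adjusted p = 0.537 from limma). Both of its probes gave the same order of arrays, with median signals of 179, 126, 152 and 162 on the 20-nucleotide probe and 223, 161, 185 and 203 on the 21-nucleotide probe. The value depended on vehicle 2. Without vehicle 1 the log2 difference was 0.34, and without vehicle 2 it was −0.034.

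mmu-miR-31-5p and mmu-miR-138-5p, described as restraining adipogenesis, were detected on no array. miR-31-5p had 2 of 160 spots well above background, and its median signals of 34.6, 30.0, 38.0 and 32.8 were 0.935 to 1.02 times the negative controls. miR-138-5p also had 2 of 160 such spots, with median signals of 37.3, 31.6, 37.3 and 32.0. The normalized log2 signal of miR-31-5p was 3.86 and 3.88 in vehicle and 4.05 and 4.17 in CL, a gap between values that are not above background and so carry no measured order. For miR-138-5p median polish gave 4.03 on each array. The normalized level alone does not mark detection, since the dimmest detected miRNA stood at a log2 signal of 3.73 to 3.92 over the arrays. Neither miR-31-5p nor miR-138-5p could be compared between groups, and the arrays allow no statement on their presence at low amounts. Their opposite arms miR-31-3p, miR-138-1-3p and miR-138-2-3p were not detected on any array either.

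**Figure D4:**
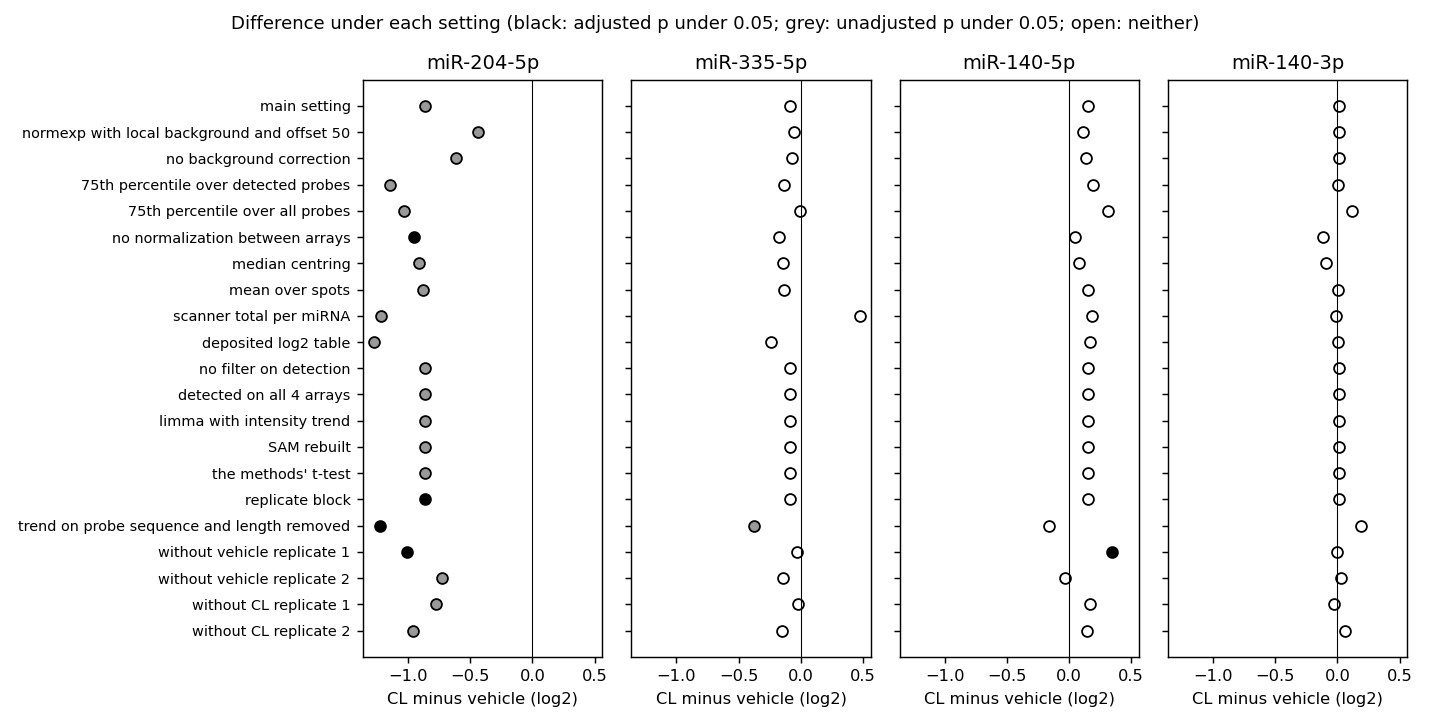
Difference between CL and vehicle (log2, x axis) of the 4 detected members under the main setting and 20 alternatives (y axis), black where limma or the named test gave an adjusted p under 0.05, grey where only the unadjusted p was under 0.05, and open otherwise. miR-204-5p stays to the left of 0 in every row, between −1.27 and −0.44, while miR-335-5p, miR-140-5p and miR-140-3p have values on both sides.

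The direction of miR-204-5p was the same under all 20 alternatives to the processing and the test, and each of them gave an unadjusted p under 0.05. Its size was less stable. The log2 difference was −0.44 with the local background and an offset, the smallest, and −1.27 on the values the authors deposited, the largest in size. Without normalization between arrays, where the median of all tested miRNAs was −0.12, it was −0.95. With all arrays kept, limma's adjusted p for miR-204-5p passed 0.05 without normalization between arrays, with the column as a block and with the probe trend removed. Those settings called 64, 86 and 51 of all 425 tested miRNAs. In every other setting that kept all arrays the adjusted p of miR-204-5p stayed above 0.05, which for the rebuilt SAM could not be otherwise.

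The miRNAs with the array pattern most like that of each detected member were found by the root mean square difference of their deviations from their own means over the 4 arrays. For miR-204-5p these were miR-150-5p, known from lymphocytes, at 0.037 (log2) and miR-5122 at 0.065. miR-150-5p was at 7.76, 7.95, 6.85 and 7.07 on vehicle 1, vehicle 2, CL 1 and CL 2, with a log2 difference of −0.89. For miR-335-5p they were miR-361-5p and let-7a-5p, both at 0.021. For miR-140-5p they were miR-148b-3p at 0.039 and miR-26a-5p at 0.053, and for miR-140-3p miR-5620-3p at 0.022 and miR-3473c at 0.023. With 4 arrays such likeness is a description only.

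Marker miRNAs of the cell types that an SVF can hold were also among those called at the unadjusted threshold, which took in 35.1% of all tested miRNAs. The 2 endothelial arms of miR-126 were both called lower, with summed linear signals of 14238 to 15504 on the vehicle arrays and 5149 to 6470 on the CL arrays. The 3 mesenchymal markers of the miR-199a and miR-214 group were all called higher, from 1328 to 1978 up to 3397 to 3538. Of the mural markers miR-143-3p and miR-145a-5p 1 of 2 was called lower (536 to 635 against 393 to 426), of the leukocyte markers 2 of 4 were called higher and 1 lower (1725 to 2300 against 3318 to 3408), and of the red cell markers 3 of 3 were called higher (8204 to 9550 against 14295 to 16907), all at the unadjusted threshold. The skeletal muscle markers overlapped between groups, with 0 of 3 called. Of the epithelial and mesothelial markers 3 of 4 were detected on no array, and so was the liver marker miR-122-5p. In such a mixed sample fewer cells of a type and less RNA per cell cannot be told apart, and the part of these markers in the lower miR-204-5p was not tested.

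Other miRNAs known to act on Runx2 lay on both sides of 0. Of 10 on the list, 6 were tested, and 2 were higher and 2 lower at the unadjusted threshold, where 35.1% of all tested miRNAs were called, with a median log2 difference of 0.031 against −0.0079 over all tested miRNAs. miR-34c-5p, of the p53-regulated miR-34 family, was at 5.50 and 4.76 in vehicle and 6.49 and 6.40 in CL, a log2 difference of 1.31 (adjusted p = 0.101 from limma, 0.0174 with the column as a block). Over the 20 alternatives it ran from 0.66 to 2.20 and was called at the unadjusted threshold in 18. miR-218-5p, which has been linked to bone formation, was at 6.59 and 5.89 against 7.36 and 7.36, a log2 difference of 1.12 (adjusted p = 0.102, with the block 0.0250, both from limma), called in 18 of 20 alternatives with values of 0.76 to 1.47. In both the CL arrays lay close together and the vehicle arrays apart. miR-338-3p was at 6.42 and 5.88 against 5.07 and 5.27, a log2 difference of −0.98 (adjusted p = 0.102, with the block 0.0347, both from limma), called in 17 of 20 with values of −1.59 to −0.54. miR-30c-5p, which also stands on the list of miRNAs favouring adipogenesis, had a log2 difference of −0.43 and lost its unadjusted call without vehicle 2, CL 1 or CL 2. The remaining 4 of the list, miR-135a-5p, miR-137-3p, miR-205-5p and miR-217-5p, were detected on no array.

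Of 12 further miRNAs described as favouring adipogenesis 11 were tested, and 1 was higher and 2 were lower at the unadjusted threshold, no larger a share than the 35.1% of all tested miRNAs, with a median log2 difference of −0.074. miR-21a-5p, widely induced in inflammation, was at 11.94 and 10.99 in vehicle and 12.54 and 12.41 in CL, a log2 difference of 1.00, which was 0.53 without vehicle 2. miR-30a-5p had a log2 difference of −0.44 and, like miR-30c-5p, was not called without CL 1 or CL 2. Of 14 described as restraining adipogenesis 13 were tested, and 3 were higher and 1 was lower, again no larger a share than that, with a median of 0.17. miR-145a-5p, abundant in smooth muscle, was lower on both CL arrays, at 6.43 and 6.44 against 7.11 and 7.26, a log2 difference of −0.75 (adjusted p = 0.0917, with the block 0.0330, both from limma). miR-22-3p, miR-130b-3p and miR-224-5p were higher by 0.45, 0.37 and 0.37 on the log2 scale. These 4 also lost their unadjusted call without CL 1 or CL 2, fits in which limma's standard error was 0.39 for each of the 4 detected members. The log2 difference itself was then −0.75 and −0.76 for miR-145a-5p and 0.43 and 0.47 for miR-22-3p, near the value from all arrays. miR-224-5p changed sign on the scanner totals. None of the miRNAs on these lists passed the adjusted threshold in the main comparison.

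**Figure D5:**
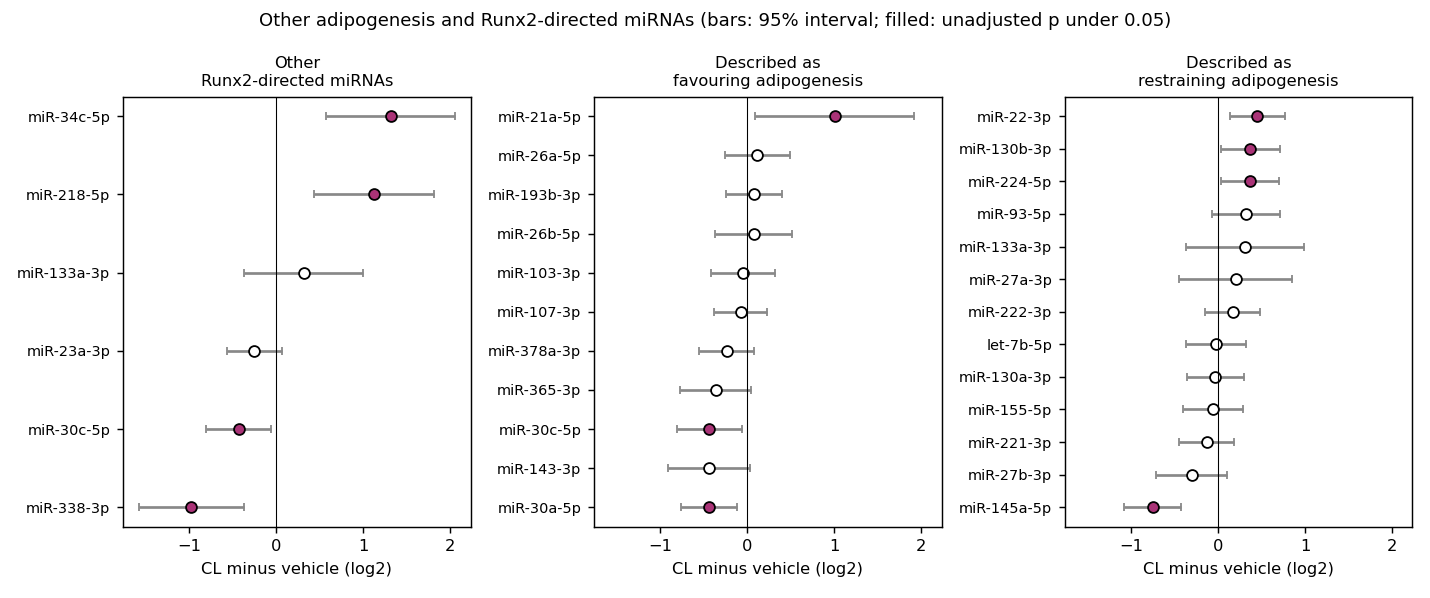
Difference between CL and vehicle (log2, x axis) of the tested miRNAs (y axis) on the 3 lists, with bars for limma's 95% interval and filled circles at an unadjusted p under 0.05. Each list holds values on both sides of 0, from −0.98 to 1.31 among Runx2-directed miRNAs, −0.44 to 1.00 among those favouring adipogenesis and −0.75 to 0.45 among those restraining it.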

How the data were processed

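The authors hybridised Cy3-labelled RNA to Agilent mouse miRNA arrays and deposited the files of Feature Extraction 10.7.1.1, which hold the linear intensity of each spot, its local background, flags and totals per probe and miRNA, and a table of log2 values. Per the methods the authors normalized by robust multi-array analysis and tested with significance analysis of microarrays (SAM), without saying whether the deposited log2 table holds those values. Per the file headers the design build is mm9, and of 20 probes of 8 members all have a listed position inside the RefSeq hairpin of GRCm38.p6. From the deposited intensity, limma 3.58.1 in R 4.3.3 corrected the mean spot signal with normexp, which was fitted over the 52044 spots of an array with neither a local background nor an offset. Control and outlier-flagged spots were dropped, arrays were quantile-normalized, and log2 values were summarised by median polish. The fit covered 425 miRNAs that the software detected throughout one group or the other, with two-sided moderated tests and Benjamini-Hochberg adjustment. The mature sequences are those of RefSeq. Arrays with one replicate number share a slide column, and they deviated together with a correlation of 0.12 over miRNAs. With 2 such pairs the numbers were not taken as a pairing, and the block fit is given as the fit by column. All members were named, as were up to 4 miRNAs per list with the largest change at the unadjusted threshold and the 2 nearest patterns per member. Members, lists and alternatives were chosen with earlier results of these data known. The alternatives are listed in the plot of settings. In the 75th percentile settings scaled signals were floored at 1.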

Additional observations from a re-analysis of the deposited data

How the results depend on the processing

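limma called 0 miRNAs at an adjusted p of 0.05, against 86 with the replicate block, 64 where arrays were not normalized to each other, 51 after a probe trend (sequence and length) was taken out, 44 after median centring, 26 on scanner totals, 7 on the deposited log2 table and 2 under an intensity trend. Leaving out vehicle 1 gave 229 calls, vehicle 2 gave 1, CL 1 gave 21 and CL 2 gave 31, the lone array being assumed to vary like the other group. The 149 at an unadjusted p of 0.05 became 91 with median centring, 60 with SAM and 52 with the methods' t-test, and 61 to 262 with 1 array left out. The direction of miR-204-5p held under all 20 alternatives, with log2 differences of −1.01 to −0.72 when an array was left out. With all arrays kept, its adjusted p from limma passed 0.05 without between-array normalization (0.0202), with the block (0.0250) and with the probe trend removed (0.0338). miR-335-5p turned to 0.47 with the scanner total, and with the probe trend removed it was at −0.37 with an unadjusted p of 0.0315 (adjusted p = 0.102 from limma). miR-140-5p turned to −0.16 with the probe trend removed and ranged from −0.034 to 0.34 with 1 array left out. miR-140-3p turned to −0.12 without normalization between arrays, −0.090 with median centring and −0.010 with the scanner total, and ranged from −0.029 to 0.061 with 1 array left out. The causes were not tested. Signal near background limits the 5 undetected members, for which no difference can be given.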
